A study of Homo sapiens with 44 samples.

Results

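The S100 family was followed through the RNA sequencing of a breast cancer series as 10 listed genes, S100A2, S100A4, S100A6, S100A8, S100A9, S100A10, S100A11, S100A14, S100A16 and S100P. The list was given by name, and it was chosen with earlier results of these data known. All 10 were found among the 58735 Ensembl identifiers of a count table and among the 27315 gene symbols of a table of variance-stabilised values. The other 11 S100 genes are named below only as the rest of the family. The series asked how the histone methyltransferase EZH2 and the NF-kB transcription factors act on gene expression in triple-negative breast cancer. It holds 44 samples, of which 14 are RNA libraries. The other 30, from chromatin immunoprecipitation, were not analysed here. RNA libraries form 7 groups of 2. In the first experiment, MDA-MB-231 cells received siRelA, siRelB or a control siRNA. In the second experiment, cells labelled SUM149 and MDA-MB-231 cells each received siEZH2 or a control siRNA. All cells were established lines, transfected with 20 nM siRNA and collected after 48 h, and the RNA was polyadenylated. The series text calls the 2 libraries of a group biological duplicates. Nothing in the sources used here says that they came from separate cultures, so the p-values measure the spread between these libraries.

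S100 proteins are small calcium-binding proteins built from a pair of EF-hand loops. On binding calcium most of them, though not S100A10, open a surface that grips target proteins. Targets of the family include annexins, cytoskeletal proteins and p53. Some members are also secreted and signal through the receptors RAGE (gene AGER) and TLR4. In breast cancer, S100A4 and S100P are known for their link to cell motility and invasion, S100A10 and S100A11 for binding annexin A2 and annexin A1 at membranes, and S100A8 with S100A9 as calprotectin, the alarmin of neutrophils and inflamed epithelium.

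The libraries of the first experiment held 18.6 to 24.4 M counts. Those of the second held an estimated 17.4 to 38.1 M reads, read from the spacing of the lowest values. The targeted genes were low where the labels said so. RELA stood at 10.7 and 12.5 CPM (counts scaled to library size) in siRelA libraries, against 154 and 150.0 CPM in their controls. RELB stood at 4.77 and 5.4 CPM in siRelB libraries, against 39.8 and 40.4 CPM in the controls, and at 15.3 and 13.4 CPM in siRelA libraries. EZH2 had 442 and 517 normalised counts after siEZH2 in cells labelled SUM149, against 2563 and 2746 in their controls. EZH2 in MDA-MB-231 had 368 and 298 after siEZH2, against 3022 and 3020.0 in the controls. SUM149 is known as a line with basal keratins and E-cadherin. The markers of the libraries labelled SUM149 were mixed. Of 8 epithelial and basal markers tested between the control groups, 6 were higher in those labelled SUM149 and 1 lower. Of all genes tested, 82.8% differed between these groups. CDH1, KRT5, KRT6A and KRT17 were high enough to be tested only through cells labelled SUM149, and CLDN4 only through MDA-MB-231. Each of these had to differ between the lines, so they are read as levels only. KRT5 stood at 1015 and 1027 normalised counts in controls labelled SUM149, against 0 and 0 in MDA-MB-231, and KRT6A at 1273 and 1375, against 3.79 and 0.848. CDH1 (E-cadherin) was among the higher ones, at 116 and 102, against 24.5 and 23.8. Of 7 mesenchymal markers tested, 5 were higher in controls labelled SUM149 and 1 lower. These controls held 5064 and 5311 of CDH2 (N-cadherin), against 119.9 and 128. They also held 200019 and 218257 of FN1 (fibronectin), against 3964 and 3936. AXL was the lower one, at 10485 and 10844, against 46635 and 45898. ZEB1 did not differ, at 1218 and 1259.5, against 1261 and 1198. The basal marker TP63 was at 0 in both controls labelled SUM149, and ESR1 and PGR were at or near 0 in both lines. These libraries are called by their label throughout.

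Of the 10 members, 9 lie on chromosome 1 in the S100 cluster and S100P lies on chromosome 4, in GENCODE 44 on GRCh38. All are protein-coding. From one end of the cluster to the other, S100A10 spans 151982915 to 151993859 and S100A14 spans 153614255 to 153616986, both on the minus strand. S100A6 spans 153534599 to 153536244 and S100A4 153543613 to 153550136, also on the minus strand. The cluster gene S100A3, which is not among the 10, lies within the span of S100A4 on the same strand without exon overlap. S100P spans 6693878 to 6697170 on the plus strand. Among the 10, only S100A6 shares exonic bases with another gene, an antisense long noncoding RNA. It had 19 to 51 counts per library of the first experiment, at most 0.162% of those of S100A6. The strand setting of the counting was not given in the sources used here. Annotated S100A11 pseudogenes, 8 in number, held 0 counts in every library of that experiment.

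Promoters of 5 members are shown because the results below turn on these genes and because their start sites differ in the motifs held. Each line gives the 250 bases before the start site, 5′ to 3′ on the gene's strand, from RefSeq on GRCh38.p14, at chr1:153535992-153536241 (minus) for S100A6, chr1:151993860-151994109 (minus) for S100A10, chr1:153565845-153566094 (minus) for S100A2, chr1:153616326-153616575 (minus) for S100A14 and chr4:6693628-6693877 (plus) for S100P. Capitals mark the GC box GGGCGG in S100A6 and S100A10, the AP-1 word TGANTCA in S100A2 and the kappa-B consensus of NF-kB in S100A14.
S100A6: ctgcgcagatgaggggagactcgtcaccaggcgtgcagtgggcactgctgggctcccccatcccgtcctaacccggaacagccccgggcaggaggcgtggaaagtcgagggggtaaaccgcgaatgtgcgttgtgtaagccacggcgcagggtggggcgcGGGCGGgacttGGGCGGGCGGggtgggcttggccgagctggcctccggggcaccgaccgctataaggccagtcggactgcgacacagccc
S100A10: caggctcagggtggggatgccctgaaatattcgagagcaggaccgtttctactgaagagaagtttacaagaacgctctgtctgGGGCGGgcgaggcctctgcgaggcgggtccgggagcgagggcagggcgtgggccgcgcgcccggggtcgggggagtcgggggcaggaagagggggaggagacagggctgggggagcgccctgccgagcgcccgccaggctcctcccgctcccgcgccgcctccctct
S100A2: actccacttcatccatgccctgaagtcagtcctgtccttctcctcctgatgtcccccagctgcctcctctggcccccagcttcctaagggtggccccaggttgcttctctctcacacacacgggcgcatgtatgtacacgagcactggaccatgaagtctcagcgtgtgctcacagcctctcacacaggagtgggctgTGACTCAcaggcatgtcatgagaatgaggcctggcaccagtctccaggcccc
S100A14: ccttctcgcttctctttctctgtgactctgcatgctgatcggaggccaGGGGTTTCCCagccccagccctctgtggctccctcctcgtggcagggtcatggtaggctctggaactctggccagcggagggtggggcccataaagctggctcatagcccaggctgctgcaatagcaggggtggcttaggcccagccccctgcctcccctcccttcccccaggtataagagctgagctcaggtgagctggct
S100P: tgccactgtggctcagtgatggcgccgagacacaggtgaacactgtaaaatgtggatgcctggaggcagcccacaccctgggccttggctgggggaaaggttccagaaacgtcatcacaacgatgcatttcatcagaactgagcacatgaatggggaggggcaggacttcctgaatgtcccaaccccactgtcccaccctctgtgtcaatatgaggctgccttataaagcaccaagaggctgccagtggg

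These words were searched on both strands of 300-base windows, 250 before and 50 after the start. All 10 members matched the RefSeq table, with 14 windows between them. GC boxes were found in 5 of the 14 windows (of S100A6, S100A9, S100A10, S100A11 and S100A16), against 45.0% of all 35116 promoter windows. In S100A6 they began 90, 79 and 75 bases before the start, the last pair overlapping. In S100A10 the GC box began 167 bases before the start and in S100A11 68. The AP-1 word was found in 1 of the 14, of S100A2, 52 bases before the start, against 7.71% of all windows. The kappa-B consensus was found in 1 of the 14, of S100A14, 202 bases before the start, against 11.3% of all windows. The TATA word TATAAA was found in 5 of the 14 (of S100A4, S100A8, S100A9 and S100P), against 11.5% of all windows. The S100P window held none of the other 3 words. These matches describe letters and not binding.

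S100A6, known as calcyclin, was the most abundant member in every control group when levels were set per kilobase of exon. In the first experiment it stood at 2233 and 2169.6 CPM per kilobase in control cells, rank 10 of 58207 genes. In the second it stood at 6299 and 6580.0 normalised counts per kilobase in controls labelled SUM149 (rank 147 of 25015 genes) and at 55529.8 and 52662 in MDA-MB-231 controls (rank 4). In MDA-MB-231 the order then ran S100A11, S100A10, S100A4, S100A16 and S100A2 in both experiments. In the second these stood at 9209 and 9845, 6065 and 5880.0, 4503 and 4423, 2742 and 2944, and 1043 and 1125 normalised counts per kilobase. No neighbours in this run overlapped between libraries. Below them S100P (2.04 and 5.39) and S100A14 (2.98 and 1.33) overlapped, and S100A8 and S100A9 were at 0.

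In controls labelled SUM149 the order differed. S100A11 came second (4905 and 5137 normalised counts per kilobase), followed by S100A16 (2879 and 2996), S100A10 (2132 and 2299), S100A2 (1806 and 1869) and S100P (992 and 909). S100A14 (35.8 and 36.1) came next. S100A4 (20.5 and 32.0) overlapped with S100A9 (19.9 and 21.6) and S100A8 was lowest (0 and 1.23). S100A4, near S100A10 and S100A16 in MDA-MB-231, stood near the level of S100A9 in these cells.

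**Figure D1:**
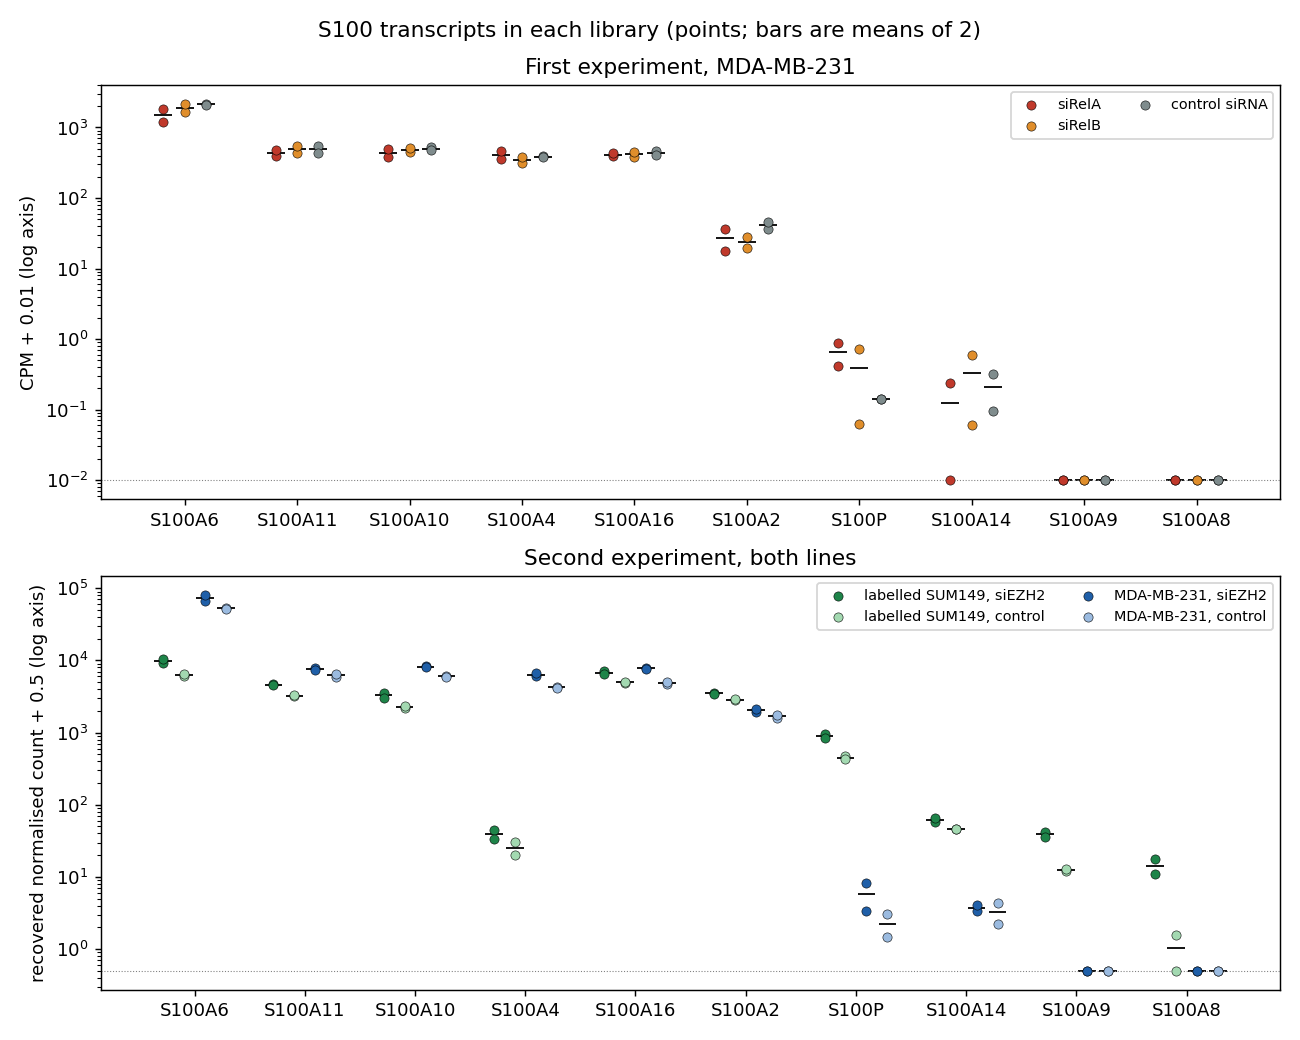
Level of each S100 member in each library on a log axis, as CPM in the first experiment and as recovered normalised counts in the second, with points for libraries and bars for the mean of 2, not divided by gene length and with a small constant added so that 0 can be drawn. S100A4 stands at 19.4 to 43.6 normalised counts in cells labelled SUM149, against 4184 to 6637 in MDA-MB-231.

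The control cells of both lines were compared in the second experiment with limma on the variance-stabilised values, a log2-like scale that compresses differences of genes with few reads. S100A6, S100A10 and S100A11 were lower in controls labelled SUM149, S100A2 was higher, and S100A16 did not pass the test. The lines differ in nearly everything: 82.8% of the 12356 genes tested were called at an adjusted p under 0.05, so that 4 of these 5 members is near the share of all genes. S100A8, S100A9 and S100A14 did not pass the filter on low values in the second experiment, and in the first they had too few counts for a test. S100A4 passed it only through MDA-MB-231 and S100P only through the cells labelled SUM149, so that each had to differ between the lines. For these their levels are given with no test.

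S100A4, which binds non-muscle myosin, had 19.4 and 30.3 normalised counts in controls labelled SUM149, against 4260.0 and 4184 in MDA-MB-231 controls. The means differed 170.0-fold, and the groups were far apart. S100P, a partner of ezrin, went the other way. It had 467 and 428 normalised counts in controls labelled SUM149, against 0.959 and 2.54 in MDA-MB-231. That was 666 against 4 reads, a ratio of 248 after scaling for depth, with an exact 95% interval of 96.4 to 913 that covers counting error only.

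The other differences between the lines were smaller. S100A6 was 8.40-fold lower in controls labelled SUM149 (-3.02 ± 0.09, SE, limma adjusted p = 1.2e-12), S100A10 2.70-fold lower (-1.33 ± 0.06) and S100A11 1.90-fold lower (-0.87 ± 0.06). S100A2, a p53-binding member of basal epithelium, was 1.70-fold higher (0.68 ± 0.06). S100A16 stood at 4898 and 5096 normalised counts in controls labelled SUM149, against 4664 and 5007 in MDA-MB-231, and the libraries overlapped. S100A14, a member of epithelial cells, had 45.7 and 46.1 normalised counts in controls labelled SUM149, against 3.80 and 1.70 in MDA-MB-231. S100A9 had 11.4 and 12.4 against 0 and 0, where 3 reads equal 2.54 to 2.84.

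Knockdown of EZH2 addresses which transcripts change when the methyltransferase of Polycomb repressive complex 2 is lowered. Most of the S100 transcripts tested rose after siEZH2. In cells labelled SUM149, S100P, S100A6, S100A10, S100A11, S100A16 and S100A2 rose, by ratios of 1.24 to 2.00. In MDA-MB-231, S100A16, S100A4, S100A6, S100A10, S100A11 and S100A2 rose, by 1.21 to 1.61. In each line that was 6 of 7 members tested, and none fell, in a list chosen with earlier results of these data known. Of all genes tested 29.4% rose and 28.6% fell in cells labelled SUM149, and 29.4% rose and 27.1% fell in MDA-MB-231, and the median change of the 7 members was 0.47 and 0.42 (log2-like scale), against -0.00 and 0.00 for all genes. In bulk RNA, fewer cells of a type and less RNA per cell cannot be told apart. Markers of cell types moved as well. Of 7 mesenchymal markers tested, 6 rose and 0 fell in cells labelled SUM149, and 5 rose and 1 fell in MDA-MB-231. Of 8 epithelial and basal markers tested, 5 rose and 2 fell in cells labelled SUM149, and 1 rose and 3 fell in MDA-MB-231. Of 4 fibroblast markers tested, 3 rose in cells labelled SUM149 and 2 in MDA-MB-231, and 0 fell. The 2 in MDA-MB-231, COL1A2 and PDGFRB, passed the filter on low values only through its siEZH2 libraries, so both had to be higher there. COL1A2 in cells labelled SUM149 rests on 2.94 and 3.03 normalised counts after siEZH2, against 0 and 0. The part of all these markers in the S100 changes was not tested.

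Both annexin-binding members rose in both lines. S100A10 had 3494 and 3048 normalised counts after siEZH2 in cells labelled SUM149, against 2157 and 2327 in the controls (0.49 ± 0.06, limma adjusted p = 2.1e-05). In MDA-MB-231 it had 8371 and 8033 after siEZH2, against 6138 and 5951 (0.42 ± 0.06, limma adjusted p = 8.2e-05). In both lines both knockdown libraries lay above both controls. S100A11 had 4647 and 4585 after siEZH2 in cells labelled SUM149, against 3184 and 3334 (0.47 ± 0.06, limma adjusted p = 1.1e-05). The MDA-MB-231 libraries held 7957 and 7363, against 5977 and 6389 (0.30 ± 0.06, limma adjusted p = 5.5e-04). The groups did not overlap here either.

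S100A6 had 9071 and 10363 normalised counts after siEZH2 in cells labelled SUM149, against 6117 and 6389 in the controls, a ratio of 1.55 (0.61 ± 0.09, limma adjusted p = 6.9e-05). In MDA-MB-231 it had 66561 and 81866 after siEZH2, against 53919 and 51135, a ratio of 1.41 (0.49 ± 0.09, limma adjusted p = 4.4e-04). Its 2 knockdown libraries lay further apart than its controls in both lines, and all lay above the controls. S100A16, a widely expressed member, had 7104 and 6394 after siEZH2 in cells labelled SUM149, against 4898 and 5096 (0.41 ± 0.06, limma adjusted p = 6.3e-05). For MDA-MB-231 the values were 7933 and 7671, against 4664 and 5007 (0.66 ± 0.06, limma adjusted p = 9.3e-07), the largest change on this scale in that line. S100A2 changed least among those called. It had 3559 and 3463 after siEZH2 in cells labelled SUM149, against 2792 and 2889.9 (0.28 ± 0.06, limma adjusted p = 0.00143).

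In MDA-MB-231, S100A2 had 1906 and 2149.6 normalised counts after siEZH2, against 1613 and 1739 (0.24 ± 0.06, limma adjusted p = 0.00443). This call was lost without siEZH2 replicate 2 (0.16, adjusted p = 0.0539) and without control replicate 1 (0.19, adjusted p = 0.0620), and over its 14 alternatives the adjusted p ranged from 0.00158 to 0.0620. The other called rises after siEZH2 passed in every alternative run.

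The motility-linked members S100A4 and S100P rose each in the line that held them at a high level. S100A4 had 6098 and 6637 normalised counts after siEZH2 in MDA-MB-231, against 4260.0 and 4184 in the controls, a ratio of 1.51 (0.56 ± 0.07, limma adjusted p = 1.3e-05). In cells labelled SUM149 it had 43.6 and 33.1 after siEZH2, against 19.4 and 30.3, and did not pass (0.15 ± 0.07, limma adjusted p = 0.0843). All knockdown libraries lay above all controls in both lines. The low values rest on 78 against 39 reads, a ratio of 1.49 with an exact 95% interval of 1 to 2.25 for counting error only. The call was made on log2(recovered count + 1) (0.63, limma adjusted p = 0.0199) and without SUM149 control replicate 2 (0.21, adjusted p = 0.0349), with a range of 0.0199 to 0.413 over the alternatives. S100P had 945 and 848 normalised counts after siEZH2 in cells labelled SUM149, against 467 and 428, a ratio of 2.00 (0.73 ± 0.07, limma adjusted p = 1.9e-06). In MDA-MB-231 it had 7.72 and 2.83 after siEZH2, against 0.959 and 2.54, and did not pass (0.12 ± 0.07, limma adjusted p = 0.189). Those were 12 against 4 reads, a ratio of 2.73 with an interval of 0.829 to 11.6. On log2(recovered count + 1) it was called (1.13, limma adjusted p = 0.0304), with a range of 0.0304 to 0.670 over the alternatives.

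**Figure D2:**
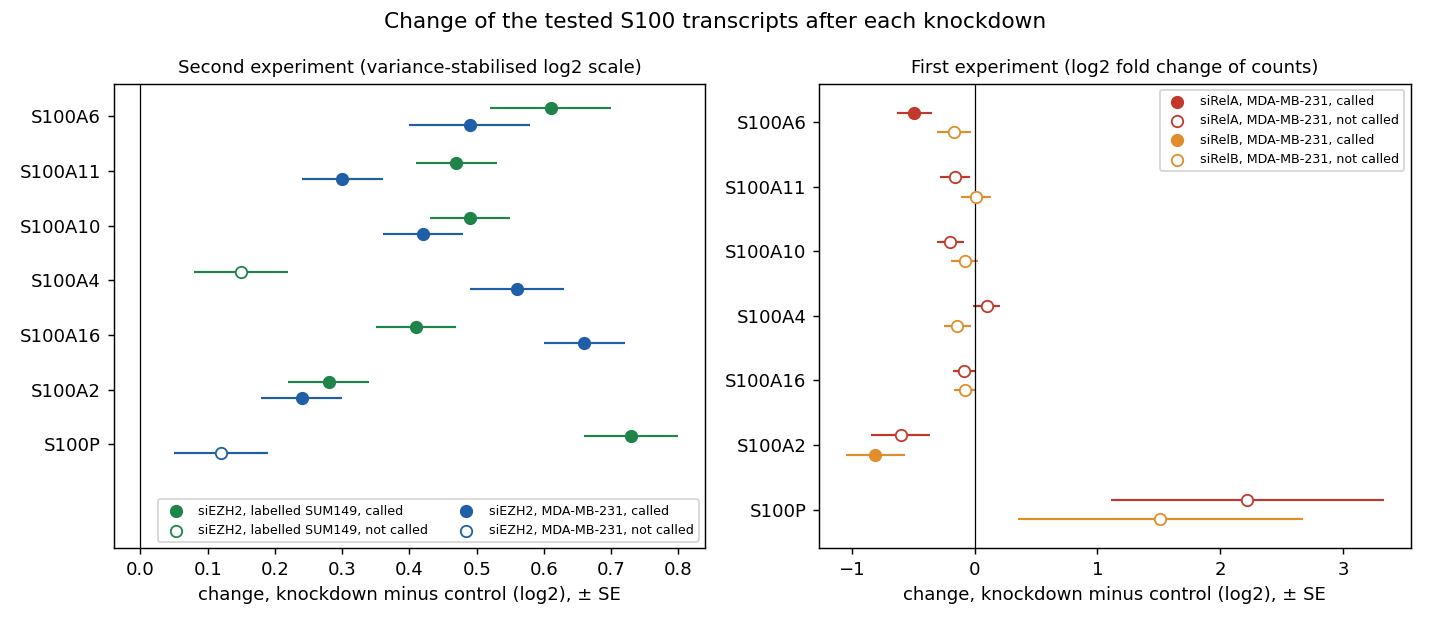
Change of the 7 tested S100 transcripts after each knockdown, as knockdown minus control in log2 units, with bars for the standard error, from limma for siEZH2 and from edgeR for siRelA and siRelB. Under siEZH2 the 14 values lie between 0.12 and 0.73, and under siRelA and siRelB those of members other than S100P lie between -0.81 and 0.10.

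The direct test of the difference between the lines in their response to siEZH2 called 2 of 7 members on the variance-stabilised scale, against 21.5% of all genes. They were S100P (0.61 ± 0.10, limma adjusted p = 8.6e-04) and S100A4 (-0.42 ± 0.10, limma adjusted p = 0.00816). Both passed the filter through 1 line only, and in the other line they lie near the lowest value, where this scale shrinks changes. The calls are therefore not read as a difference in response. The ratio of mean normalised counts, siEZH2 over control, was 2.00 for S100P in cells labelled SUM149 and 3.01 in MDA-MB-231, where the depth-scaled ratio of summed reads was 2.73 with an exact 95% interval of 0.829 to 11.6. For S100A4 the ratio of means was 1.54 in cells labelled SUM149 and 1.51 in MDA-MB-231. On log2(recovered count + 1) the difference was -0.13 ± 0.54 for S100P (limma adjusted p = 0.895) and 0.03 ± 0.27 for S100A4 (limma adjusted p = 0.948). Over all alternatives the adjusted p ranged from 6.6e-04 to 0.895 for S100P and from 0.00463 to 0.948 for S100A4. Without MDA-MB-231 control replicate 2, S100A4 was also not called (-0.40, adjusted p = 0.0507). S100A16 stood at -0.25 (limma adjusted p = 0.0535) and was called without siEZH2 replicate 1 of SUM149 (-0.32, adjusted p = 0.0300). S100A11 stood at 0.17 ± 0.08 (limma adjusted p = 0.143), S100A6 at 0.12 ± 0.13, S100A10 at 0.07 ± 0.09 and S100A2 at 0.04 ± 0.09. None of these passed, which does not show that the lines respond alike.

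**Figure D3:**
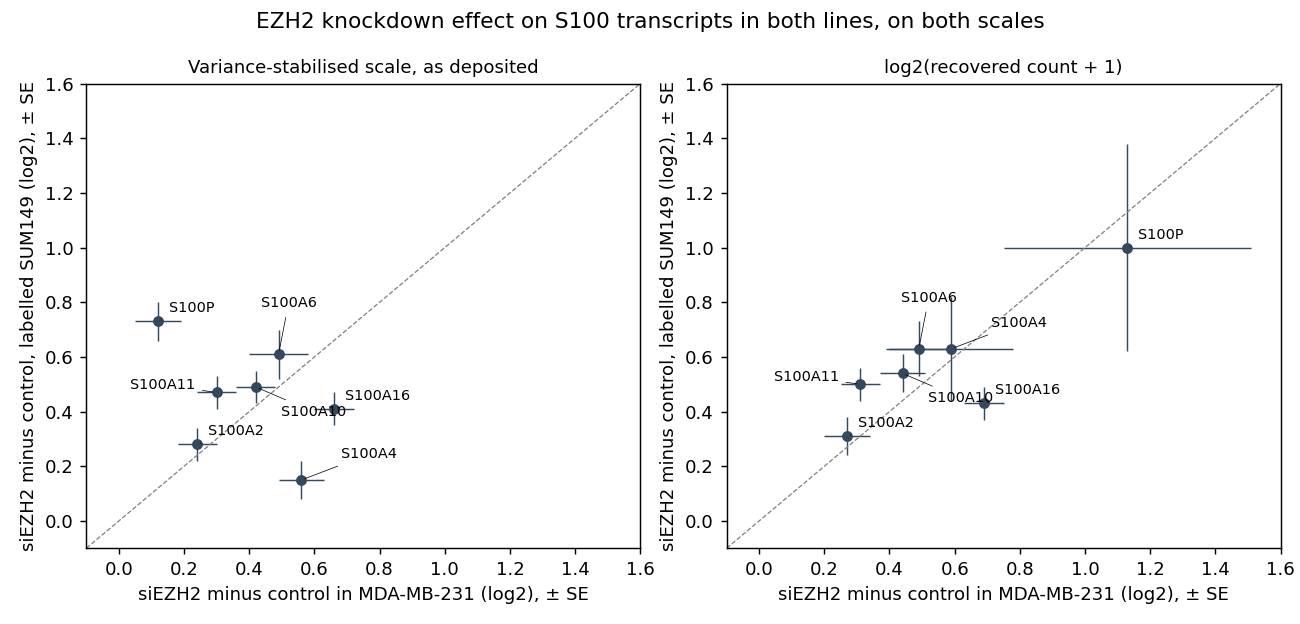
Change after siEZH2 in cells labelled SUM149 (vertical) against that in MDA-MB-231 (horizontal), with standard errors, on the variance-stabilised scale and on log2(recovered count + 1); the dashed line marks equal change. S100P in MDA-MB-231 lies at 1.13 on recovered counts and at 0.12 on the variance-stabilised scale, and S100A4 in cells labelled SUM149 at 0.63 and 0.15.

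Calprotectin transcripts were seen in cells labelled SUM149 and not in MDA-MB-231. S100A9 had 40.9 and 35.7 normalised counts after siEZH2 in cells labelled SUM149, against 11.4 and 12.4 in the controls. That was 77 against 18 reads, a ratio of 3.19 with an exact 95% interval of 1.89 to 5.67 for counting error. S100A8 had 10.6 and 17.0 after siEZH2, against 0 and 1.09, which was 28 against 1 reads, a ratio of 20.9 with an interval of 3.45 to 854. For both genes the knockdown libraries lay above the controls, although neither reached the filter on low values. With no such filter limma gave 0.33 ± 0.05 for S100A9 (adjusted p = 3.5e-04) and 0.39 ± 0.06 for S100A8 (adjusted p = 4.4e-04). The spread in this fit was shared with the MDA-MB-231 libraries, which all stood at the lowest value and had none. These p-values therefore do not measure the spread between libraries labelled SUM149 alone. S100A14 had 57.6 and 64.9 after siEZH2, against 45.7 and 46.1, a ratio of 1.33 with an interval of 0.983 to 1.81. It did not pass without the filter either (0.12, adjusted p = 0.102). In MDA-MB-231 S100A8 and S100A9 were at 0 in all 4 libraries, where 3 reads equal 2.12 to 2.89 normalised counts.

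Myeloid cells carry S100A8 and S100A9, so a list of 12 myeloid markers was read beside them. Its summed level was 229.7 to 234 normalised counts after siEZH2 in cells labelled SUM149, against 59.8 to 83.4 in the controls. It was 212 to 244 after siEZH2 in MDA-MB-231, against 76.1 to 81.4, where S100A8 and S100A9 stayed at 0. Most of it came from CSF1R and CD14. Both passed the filter on low values only through siEZH2 libraries, so their levels are given with no test. CSF1R had 111 and 126 after siEZH2 in cells labelled SUM149, against 39.2 and 30.3 in the controls. In MDA-MB-231 it had 172 and 192, against 66.6 and 66.3. CD14 had 118 and 98.2 after siEZH2 in cells labelled SUM149, against 39.3 and 21.5. In MDA-MB-231 it had 27.4 and 33.9, against 6.56 and 8.38. The neutrophil and macrophage genes CSF3R, ELANE, FCGR3B, SPI1, AIF1 and TYROBP were at 0 in every library. The part of these cells in the result was not tested beyond these values. In the first experiment S100A8 and S100A9 had 0 counts in all 6 libraries, where 3 reads equal 0.121 to 0.159 CPM.

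In the first experiment, knockdown of RelA, the main subunit of canonical NF-kB, was compared with control siRNA by edgeR's quasi-likelihood test on the counts. S100A6 fell, and no other member passed. Of all 15930 genes tested 19.0% were called and 10.2% were lower, so 1 of 7 members is near the share of all genes. The median change of the 7 was -0.16 (log2), against 0.02 for all genes. S100A6 had 1202 and 1842 CPM in siRelA libraries (mean 1522 ± 452, SD, n = 2), against 2168 and 2107 CPM in controls (2137 ± 43.3, SD, n = 2). Both knockdown libraries lay below both controls, and replicate 1 lay furthest below. The change was -0.49 ± 0.14 (edgeR adjusted p = 0.0219). It did not pass with DESeq2 (-0.50, adjusted p = 0.201), nor without siRelA replicate 1 (-0.23, adjusted p = 0.133), control replicate 1 (-0.48, adjusted p = 0.0737) or control replicate 2 (-0.52, adjusted p = 0.0512). Without siRelA replicate 2 the change was -0.84. Over 11 alternatives the adjusted p ranged from 1.5e-10 to 0.201 and was under 0.05 in 7.

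S100A2 had 17.6 and 36.9 CPM in siRelA libraries, against 36.9 and 45.6 CPM in controls (-0.60 ± 0.24, edgeR adjusted p = 0.0927). Replicate 2 of siRelA lay level with control replicate 1, and replicate 1 of siRelA far below both controls. It was called with no low-count filter (-0.62), with only the groups compared in the fit (-0.60, adjusted p = 0.0490), with the replicate number as a block (-0.67, adjusted p = 0.00483) and without siRelA replicate 2 (-1.24, adjusted p = 3.8e-05) or either siRelB library (-0.61 each). Without siRelA replicate 1 it stood at -0.18, and the range over 11 alternatives was 3.8e-05 to 0.613. S100A10 had 377 and 491 CPM in siRelA libraries, against 522 and 479 CPM in controls (-0.20, edgeR adjusted p = 0.209). S100A11 had 389 and 485 CPM, against 539 and 441 CPM (-0.16, edgeR adjusted p = 0.381). For both genes the groups overlapped, and both were called without siRelA replicate 2 (-0.42, adjusted p = 0.00416, and -0.34, adjusted p = 0.0453).

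S100A4 had 357 and 467 CPM in siRelA libraries, against 395 and 375 CPM in controls, and S100A16 had 393 and 432 CPM, against 467 and 409 CPM. Neither passed (0.10 and -0.09), and the libraries of each overlapped. S100P had 10 and 19 counts in siRelA libraries, against 3 and 3 in controls. Its change of 2.22 ± 1.11 did not pass (edgeR adjusted p = 0.187), and the ratio of summed reads was 4.75 with an exact 95% interval of 1.94 to 14 for counting error. S100A14 had 0 and 5 counts in siRelA libraries, against 2 and 7 in controls.

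Knockdown of RelB, a subunit of the non-canonical arm, lowered S100A2 alone among the members tested. Again 1 of 7 was called, against 18.3% of all genes and 10.8% called lower. S100A2 had 19.3 and 27.7 CPM in siRelB libraries (mean 23.5 ± 5.98, SD, n = 2), against 36.9 and 45.6 CPM in controls (41.3 ± 6.15, SD, n = 2). The groups did not overlap, and the change was -0.81 ± 0.24 (edgeR adjusted p = 0.0281). It did not pass with DESeq2 (-0.82, adjusted p = 0.223), nor without siRelB replicate 1 (-0.58, adjusted p = 0.160) or control replicate 2 (-0.66, adjusted p = 0.182). Over 11 alternatives the adjusted p ranged from 1.6e-07 to 0.223 and was under 0.05 in 8.

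No other member passed after siRelB. S100A6 had 1665 and 2131 CPM in siRelB libraries, against 2168 and 2107 CPM (-0.17, edgeR adjusted p = 0.450). S100A4 had 314 and 384 CPM, against 395 and 375 CPM (-0.14). S100A10, S100A11 and S100A16 had 442 and 504, 439.7 and 545, and 380.2 and 447 CPM in siRelB libraries, each overlapping with the controls. The median change of the 7 members was -0.08, against 0.01 for all genes. S100P had 1 and 14 counts in siRelB libraries, against 3 and 3 in controls (1.51 ± 1.16, edgeR adjusted p = 0.412), a read ratio of 2.97 with an exact 95% interval of 1.09 to 9.33 for counting error. S100A14 had 11 and 1 counts, against 2 and 7, so each of them differed more between the 2 siRelB libraries than between groups. Set against each other, siRelA and siRelB called 0 of 7 members with edgeR, 1 at an unadjusted p under 0.05, against 29.9% of all genes. DESeq2 called 0 of 8 adjusted and 1 unadjusted. Without siRelA replicate 1, S100A2 (0.64) and S100A4 (0.41) were called higher under siRelA than under siRelB. Without siRelA replicate 2, S100A6 (-0.66), S100A10 (-0.33) and S100A11 (-0.34) were called lower. S100A4 (0.40) was called without siRelB replicate 2 and S100A6 (-0.49) without siRelB replicate 1. The comparisons of siRelA and siRelB with the control share the same control libraries.

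The difference between the 2 libraries of a group ran the same way across members in the knockdowns of the first experiment. Replicate 2 minus replicate 1 of siRelA was 1.07 (log2 CPM) for S100A2, 0.62 for S100A6, 0.39 for S100A4, 0.38 for S100A10, 0.32 for S100A11 and 0.14 for S100A16. In siRelB libraries these differences were 0.52, 0.36, 0.29, 0.19, 0.31 and 0.23. In controls they were 0.30 for S100A2 and -0.29 to -0.04 for the others. Genes with short transcripts moved with them. For protein-coding genes of up to 750 bases the median difference was 0.38 in siRelA, 0.30 in siRelB and -0.09 in control libraries, and for those over 5000 bases -0.08, -0.05 and 0.08. The longest transcripts of these 6 members have 563 to 1172 bases. The part of transcript length in the S100 differences was not tested.

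**Figure D4:**
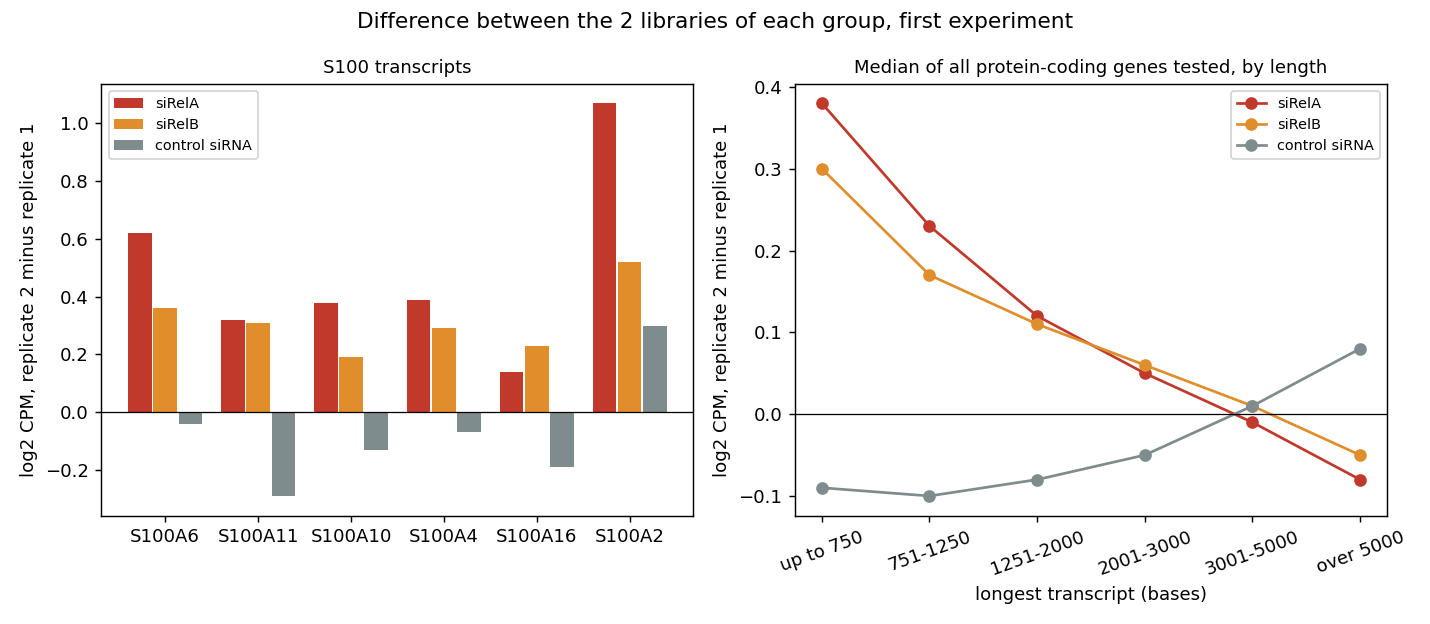
Replicate 2 minus replicate 1 in log2 CPM within each group of the first experiment, for S100 transcripts and for the median of all protein-coding genes tested by length of the longest transcript. The siRelA and siRelB values are above 0 for all 6 members and for short genes, up to 1.07 for S100A2 and 0.38 for genes of at most 750 bases.

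The changes of short genes after siEZH2 were read by the length of the longest transcript. Among protein-coding genes of up to 750 bases the median change was -0.17 in cells labelled SUM149, with 14% called higher and 47.9% lower. In MDA-MB-231 it was -0.01, with 21.5% called in each direction.

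Among the other 11 S100 genes, S100A3, S100A5 and S100A13 were tested in both experiments. S100A3 had 133 and 107 normalised counts after siEZH2 in cells labelled SUM149, against 30.9 and 46.1 in the controls (0.54, limma adjusted p = 5.2e-05). In MDA-MB-231 it had 303 and 364, against 145 and 164 (0.60, limma adjusted p = 2.4e-05). S100A13 rose as well in cells labelled SUM149 (0.40, limma adjusted p = 0.00275) and in MDA-MB-231 (0.45, limma adjusted p = 0.00122). Its exons overlap those of S100A1 on the other strand, so reads of the 2 genes may not be told apart. S100A5 was not called in either line (0.03 and 0.20). It was tested through MDA-MB-231 only. In cells labelled SUM149 it had 2 and 4 reads after siEZH2, against 0 and 8 in the controls, too few to show a change. In MDA-MB-231 it had 90.6 and 100.4 normalised counts, against 55.3 and 73.7 (limma adjusted p = 0.0856), and the groups did not overlap. After siRelA, S100A3 had 209 and 228 counts, against 301 and 337 counts in controls (-0.57 ± 0.18, edgeR adjusted p = 0.0406). After siRelB it had 156 and 196 counts (-0.61 ± 0.19, edgeR adjusted p = 0.0300). S100A5 had 2.71 and 4.14 CPM after siRelA, against 5.99 and 6.13 CPM (-0.83 ± 0.27, edgeR adjusted p = 0.0385), and was not called after siRelB (-0.29). S100A13 was called in neither (0.04 and 0.07).

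A list of 44 binding partners and receptors of S100 proteins, also chosen with earlier results known, was read beside the members. After siEZH2, 24 of 35 tested rose and 3 fell in cells labelled SUM149 (median 0.37), against 29.4% and 28.6% of all genes. In MDA-MB-231, 21 rose and 3 fell (median 0.29), against 29.4% and 27.1% of all genes. In cells labelled SUM149 the largest called rises included those of AHNAK2 (1.60), the urokinase PLAU (1.38), CD68 (1.15), AHNAK (1.12), a scaffold that binds S100A10 with annexin A2, and LGALS3 (0.95), the lectin galectin-3. In MDA-MB-231 they were those of the tissue plasminogen activator PLAT (1.91), ANXA1, which binds S100A11 (1.57), the membrane-cytoskeleton linker EZR, a partner of S100P (1.23), CD68 (0.97), LGALS3 (0.84) and ANXA6 (0.82). The values of CD68 differ between the experiments. In MDA-MB-231 it stood at 0 to 0.477 CPM in the first and at 1424 to 3331 normalised counts in the second. The cause was not tested, so its rise calls for caution. ANXA2, the partner of S100A10, rose in both lines (0.39 in cells labelled SUM149 and 0.38 in MDA-MB-231), and CACYBP, a partner of S100A6, fell in both (-0.33 and -0.37). MYH9, the myosin bound by S100A4, was called higher in cells labelled SUM149 (0.28, limma adjusted p = 0.0123) and not in MDA-MB-231 (0.19, limma adjusted p = 0.0726). The receptor TLR4 rose in both (0.65 and 0.80). The other receptor, AGER, did not reach the filter on low values and was not tested here. It had 44.4 and 46.1 normalised counts after siEZH2 in cells labelled SUM149, against 66.8 and 65.2 in the controls. In MDA-MB-231 AGER had 21.7 and 22.1, against 13.8 and 18.0.

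In the test of the difference between lines, 6 of 35 partners had a higher and 6 a lower change in cells labelled SUM149, against 21.5% of all genes called in either direction. The change was lower there for PLAT (-1.73) and ANXA1 (-0.79) and higher for PLAU (1.03), AHNAK2 (0.88) and DYSF (0.84). Between the controls of the lines 10 of 35 partners were higher and 21 lower in those labelled SUM149, a share near the 82.8% of all genes called. AHNAK2 (-2.38), ALCAM (-1.93) and DYSF (-1.84) were among the lower ones.

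Partners went both ways after the NF-kB knockdowns. After siRelA 4 of 36 rose and 8 fell, against 19.0% of all genes called in either direction. PLAU had 123 and 153 CPM in siRelA libraries, against 779.8 and 729.6 CPM in controls (-2.45 ± 0.10, edgeR adjusted p = 5.8e-11). The p53 ligase MDM2 (-1.33), the urokinase receptor PLAUR (-0.50) and CAPZA1 (-0.48) fell and AHNAK2 rose (1.19). After siRelB 3 of 36 rose and 9 fell, against 18.3% of all genes called. Among those that fell were TPM1 (-0.78), ALCAM (-0.71), MYH9 (-0.65) and IQGAP1 (-0.54), while TLR4 rose (0.51). Directly compared, 8 of 36 partners were higher and 7 lower under siRelA than under siRelB, against 29.9% of all genes called, among them PLAU (-2.26), AHNAK2 (1.65), MDM2 (-1.34), TPM1 (0.90) and MYH9 (0.77). The receptor AGER was not called in the comparisons of the first experiment.

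Most genes around the S100 cluster were too low to test. Of 50 protein-coding neighbours whose starts lie between those of S100A10 and ILF2 (that gene included), 4 were tested in the second experiment and 5 in the first. After siEZH2 ILF2 (-0.24) and CHTOP (-0.19) fell in cells labelled SUM149 and FLG, the skin barrier gene filaggrin, fell in MDA-MB-231 (-0.90). None of the 4 rose in either line, where 29.4% of all genes rose in each and 28.6% and 27.1% fell. With 4 genes this is not read as a result about the neighbours. Of the 5 in the first experiment, 1 was called after siRelA, ILF2 (-0.38), against 19.0% of all genes. After siRelB 1 was called, CHTOP (0.41), against 18.3%. Under siRelA both ILF2 and CHTOP were lower than under siRelB (-0.43 and -0.45), where 29.9% of all genes were called. In cells labelled SUM149, FLG stood at 0 to 2.02 normalised counts, too few to show a change, and it was tested only because of its level in MDA-MB-231. Between the controls of the lines, where 82.8% of all genes were called, SNAPIN (-0.67) was lower and ILF2 (0.15) higher in those labelled SUM149.

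To describe which genes varied most like each member, values were centred within each block of libraries and correlated over the 14 libraries and 11627 genes tested in both experiments. These are descriptions over libraries that share groups and depth, with no test. S100A10 was closest to TMSB10 (Pearson r = 0.953) and S100A11 (0.938). S100A11 was closest to IFITM3 (0.951) and FXYD5 (0.945), S100A6 to LHFPL6 (0.953) and CCDC71L (0.950), and S100A16 to SLC12A9 (0.985) and CST3 (0.965). S100A4 was closest to ARMH4 (0.931) and STX10 (0.915), S100A2 to XDH (0.956) and LIN52 (0.916), and S100P to CKLF (0.942) and NGEF (0.926). Among the members, S100A6 and S100A10 stood at 0.892, and S100A16 stood at 0.900 with S100A10 and 0.841 with S100A4. S100P was the least like the rest, at 0.112 to 0.470. It had only 1 to 19 counts in the first experiment and 1 to 8 reads in MDA-MB-231 of the second. Its correlations, also those with CKLF and NGEF, therefore hold much counting error.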

How the data were processed

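RNA sequencing libraries were grouped by their labels. For the first experiment the authors deposited raw read counts per Ensembl gene (HISAT2 2.0.5, featureCounts 1.5.0-p3 and DESeq2 1.20.0, hg19, per the submitters' processing notes). For the second, the authors' deposited values are variance-stabilised, log2-like and listed per gene symbol (cutadapt, STAR 2.5.2b, Salmon and DESeq2, hg19, per the same notes). The tools' roles and settings: not given in the sources used here. Of the identifiers 58207 of 58735 matched the reference names and of the symbols 25015 of 27315, 1054 through an older symbol. Positions are on GRCh38 and were not converted.

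Counts were fitted with edgeR 4.0.16 (quasi-likelihood, TMM, filterByExpr, a term for group, 6 libraries; 15930 genes, 3 residual degrees of freedom, biological coefficient of variation 10.1%). The variance-stabilised table was analysed in limma 3.58.1 (eBayes with trend, 8 libraries, 4 residual degrees of freedom), over 12356 genes at least 1 above the lowest value of 7.12 in at least 2 libraries. Benjamini-Hochberg adjustment ran over all genes tested, and genes were called at adjusted p under 0.05. Errors are standard errors unless given as SD. CPM use TMM library sizes. Recovered normalised counts, called normalised counts in the text, come from inverting the transformation with the lowest value taken as 0 reads. Of the values up to 6 reads, 87.5% to 90.1% per library then lay within 0.1 of a whole number of reads. Levels per kilobase use the union of annotated exons.

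The members and lists were chosen with earlier results of these data known. The named-gene rule took all members, every other S100 gene tested, up to 6 called partners and 4 called neighbours per comparison by size of change, and the 2 most similar genes per member. Some genes that the rule takes are not reported here. ANXA2, CACYBP, AGER and the TLR4 and MYH9 values after siEZH2 were added after their values were seen, for their known S100 binding. Alternatives were another normalisation, no filter, DESeq2 1.42.0, fewer libraries in the fit, the replicate number as a block, another scale, another variance prior and leaving out each library. Both fits were tested on simulated data. Scripts ran in R 4.3.3 and in Python 3.11.15 with pandas 2.3.3, matplotlib 3.10.9, scipy 1.17.1 and numpy 2.4.6.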

Additional observations from a re-analysis of the deposited data

Results flagged for a closer look

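On the variance-stabilised scale the test of the difference between the lines in their response to siEZH2 passed for S100P (0.61 ± 0.10, limma adjusted p = 8.6e-04, with the higher value in cells labelled SUM149) and for S100A4 (-0.42 ± 0.10, limma adjusted p = 0.00816, with the lower value in cells labelled SUM149). On log2(recovered count + 1) the differences were -0.13 ± 0.54 for S100P (limma adjusted p = 0.895) and 0.03 ± 0.27 for S100A4 (limma adjusted p = 0.948). Each gene passed the filter through 1 line only and has few reads in the other: 12 after siEZH2 and 4 in controls for S100P in MDA-MB-231, and 78 and 39 for S100A4 in cells labelled SUM149. These values do not show that the response differs between the lines.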

How the results depend on the processing

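Over alternatives that kept all libraries, 250 values kept their direction and side of the threshold, 8 newly passed, 2 no longer passed and 2 reversed; with 1 library left out these were 328, 14, 8 and 0. The reversals were the differences between lines in the siEZH2 response of S100A4 (0.03) and S100P (-0.13) on log2(recovered count + 1), where 0 members were called for this difference, against 2 on the variance-stabilised scale and 4 with no low-value filter. For siRelA the number of members called (1) was 2 with no low-count filter, 0 with DESeq2, 2 with only the groups compared and 2 with the replicate block. For siRelB it was 1, and 0 with DESeq2. For siRelA against siRelB it was 0, and 2 with no low-count filter and 1 with the replicate block. The causes were not tested.

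Leaving out 1 library each, called members ranged from 0 to 4 for siRelA, 0 to 1 for siRelB, 0 to 3 for siRelA against siRelB and 1 to 3 for the difference between lines. Called genes ranged from 1624 to 3287 for siRelA (3031 with all libraries), from 1520 to 3362 for siRelB (2913) and from 1611 to 2532 for the difference between lines (2662). The lowest were without control replicate 1, control replicate 2 and MDA-MB-231 control replicate 1.

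Over all genes no pairing by replicate number was seen. Deviations of same-numbered libraries correlated at -0.117 in cells labelled SUM149, 0.0879 in MDA-MB-231 and -0.0245 to 0.0476 in the first experiment. With 2 libraries per group this cannot exclude a shared batch. A crossed block in cells labelled SUM149, added after these correlations were seen, called 6 members and 7278 genes. With the numbers as labelled it was 6 and 7132, and without a block 6 and 7163. The replicate block changed no member count other than those named. With the longest transcript as length the order of members per kilobase was the same.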
